A study of Homo sapiens with 6 samples.

Results

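The 10 genes described here are negative regulators and readouts of the RAS to ERK pathway: the Sprouty genes SPRY1, SPRY2 and SPRY4, the Sprouty-related genes SPRED1 and SPRED2, the MAP kinase phosphatase genes DUSP1, DUSP4, DUSP5 and DUSP6, and the transcription factor gene ETV5. They were chosen by symbol from a table of 59653 genes, and all 10 were found in it and passed the filter on low counts, as did 19008 genes in all. Poly(A) RNA of the human ovarian cancer line SK-OV3, labelled wildtype, was sequenced 48 h after transfection with siRNA at 50 nM in medium with full serum. In 3 libraries the cells had received a pool of siRNAs against PVT1, a long non-coding RNA (siPVT1), and in 3 libraries a non-targeting pool (siControl). Both groups were therefore transfected cells of 1 line, and effects of the PVT1 pool other than lowering PVT1 cannot be told apart from those of lower PVT1.

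ERK is the last kinase of a chain that runs from receptor tyrosine kinases through RAS, RAF and MEK. Active ERK switches on genes whose products damp the same chain, so the RNA of these feedback genes is widely used as a readout of ERK output. Sprouty and Spred proteins act upstream, between the receptor and RAF, whereas the phosphatases remove phosphate from the MAP kinases themselves. SPRED1 is known to bring the RAS inhibitor neurofibromin to the membrane. DUSP6 acts on ERK in the cytoplasm, DUSP5 on ERK in the nucleus, DUSP4 in the nucleus on ERK and other MAP kinases, and DUSP1 in the nucleus on p38 and JNK as well as ERK. ETV5 belongs to the PEA3 group of ETS factors, whose genes respond to FGF and ERK signalling.

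Total counts lay between 28383171 and 35059576 a library. PVT1 itself had 3298, 4090.5 and 3377 normalised counts (counts scaled to a common effective library size) in the siControl libraries, listed here and below in the order of replicates 1, 2 and 3. In siPVT1 it had 2349.7, 2111 and 2062, so that every siPVT1 library was lower, and the log2 fold change was -0.72 (SE 0.097, adjusted p = 0.000342). Between libraries of a group the counts differed by more than sampling noise: chi-square divided by its degrees of freedom was 1.75 to 5.67 in siControl and 8.62 to 45.3 in siPVT1. Nothing in the labels says that the 3 libraries of a group came from separate cultures, so p-values measure only the spread between these libraries. The epithelial keratin genes KRT7, KRT8 and KRT18 were abundant, and PAX8 was present at 84.4 CPM (counts relative to the effective library size) in siControl, whereas EPCAM was at 3.10 CPM and CDH1 at 0.872 CPM. ERBB2, known to be amplified in SK-OV3, was at 40.1 CPM in siControl. Of these 7 epithelial markers, 3 were higher and 2 lower in siPVT1 at an adjusted p under 0.05, and 0 were called at 2-fold. Over all genes tested, 29.5% were higher and 28.4% lower. The log2 fold changes were 0.9995 for PAX8, 0.37 for KRT18, 0.32 for KRT8, -0.51 for KRT7 and -0.43 for ERBB2. Whether the libraries come from that line was not tested. Of 4 leukocyte markers, CD3E and MS4A1 were at 0 in every library, CD14 was called lower (log2 fold change -1.42, at most 10 counts), and the summed level of the 4 was 8.08 to 9.52 normalised counts in siControl and 2.19 to 3.34 in siPVT1. All 3 endothelial markers (CDH5, PECAM1, VWF) were higher in siPVT1, with a summed level of 8608 to 10883 normalised counts against 2046 to 2072. Nearly all of this sum was CDH5, with a mean of 1998 in siControl and 9314 in siPVT1. PECAM1 had means of 37.6 and 299 in the same order, and VWF of 24.4 and 77.4. The 4 fibroblast markers summed to 510 (510.2) to 557 normalised counts in siPVT1 against 132 to 139 in siControl. COL1A1 made up most of the sum in siControl and nearly all of it in siPVT1, and rose from a mean of 113 to 505. PDGFRA was also called higher (mean 5.25 to 23.0, adjusted p = 0.0455), LUM did not pass the test (15.9 and 7.23), and DCN was at 1 count or 0 in every library. The part of these markers in the results below was not tested, and in RNA from bulk cultures a change in the cells present and a change in RNA per cell cannot be told apart.

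RNA of the receptor-proximal inhibitors, of DUSP6 and of ETV5 was higher in siPVT1, and the other 3 phosphatases did not pass the test. The 3 Sprouty genes, both Spred genes, DUSP6 and ETV5 rose at an adjusted p under 0.05 in edgeR's quasi-likelihood test, which gives each adjusted p below unless another test is named, by between 1.39-fold for ETV5 and 8.01-fold for SPRY1, and none of the 10 fell. Over all 19008 genes tested, 29.5% passed this threshold as higher and 28.4% as lower. With the added requirement of a 2-fold change, 2 of the 10 were called, SPRY1 and SPRY4, both higher, against 11.8% of all genes called higher and 9.64% called lower. DUSP6, SPRED1 and SPRY2 lay just under the 2-fold line, with log2 fold changes of 0.999, 0.99 and 0.95. In 7 of the 10 genes every siPVT1 library lay above every siControl library. Over all genes the groups did not overlap in 65.6%, which counts both directions. The median log2 fold change of the 10 was 0.73, and that of all genes tested was 0.0014. Since the 10 were chosen with earlier results of these data known, these comparisons with all genes are descriptions and not tests. Leaving out siPVT1 replicate 3 raised the number past both thresholds from 2 to 4, by adding DUSP6 (1.15) and SPRY2 (1.04). It was 3 without siControl replicate 1, with DUSP6 added at 1.002, and 3 without siControl replicate 3, with SPRED1 added at 1.001.

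**Figure D1:**
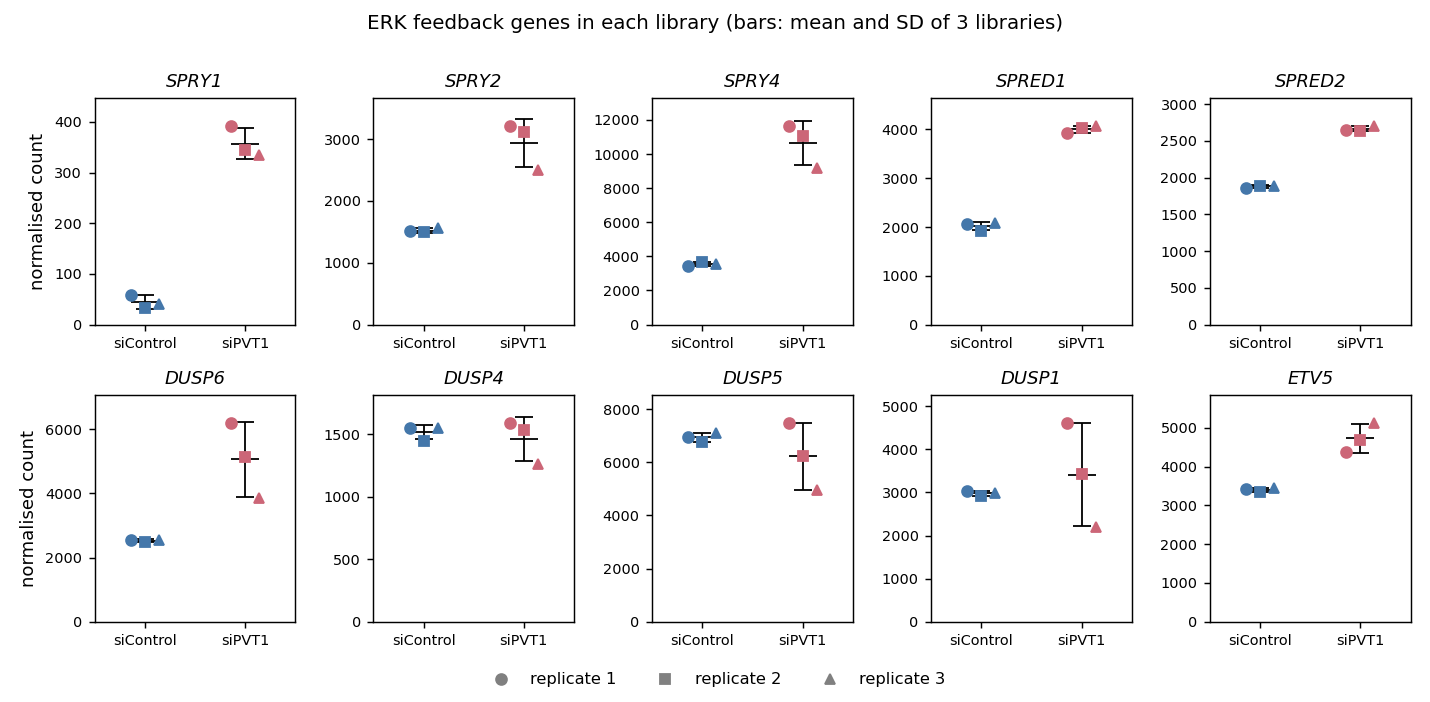
Normalised counts (vertical axis, linear from 0, its own scale in each panel) of the 10 ERK feedback genes in 3 siControl and 3 siPVT1 libraries, with symbols for replicates and bars for mean and SD. The groups are apart for the Sprouty and Spred genes, DUSP6 and ETV5 and overlap for DUSP4, DUSP5 and DUSP1.

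SPRY1 had the largest change of the 10. Sprouty proteins are inhibitors of signalling from receptor tyrosine kinases to RAS and RAF, and SPRY1 (ENSG00000164056) lies on the plus strand of chromosome 4 of GRCh38, from 123396795 to 123403760. Its counts were low in siControl, at 62, 32 and 45 reads before normalisation, and 352, 315 and 356 in siPVT1. After normalisation these were 59.0, 32.3 and 41.6 against 392, 344 and 334.5. Every siPVT1 library lay far above every siControl library, and the siControl libraries differed among themselves by more than for any other of the 10 genes (coefficient of variation 30.6%). The log2 fold change was 3.0 (SE 0.192, adjusted p = 7.97e-06), and 199 of the 19008 genes had a higher one.

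SPRY4 (ENSG00000187678; chromosome 5, 142310427 to 142326455, minus strand) had 3429, 3650.0 and 3525 normalised counts in siControl and 11645, 11063 and 9193 in siPVT1. The mean went from 3535 ± 111 to 10634 ± 1281 (SD, n = 3 each), with replicate 3 the lowest of the siPVT1 libraries, a 3.01-fold rise (log2 fold change 1.59, SE 0.092, adjusted p = 5.00e-06). SPRY2 (ENSG00000136158; chromosome 13, 80335976 to 80341126, minus strand) had 1509, 1496 and 1560.2 normalised counts in siControl and 3213, 3118 and 2495 in siPVT1. Its siPVT1 libraries lay above all siControl libraries, with replicate 3 nearest to them. It rose 1.93-fold (log2 fold change 0.95, SE 0.098, adjusted p = 8.27e-05).

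Both Spred genes rose with little spread between libraries. SPRED1 (ENSG00000166068; chromosome 15, 38252836 to 38357249, plus strand) had 2072, 1918 and 2077 normalised counts in siControl and 3929, 4024 and 4070.4 in siPVT1. The log2 fold change was 0.99 (SE 0.059, adjusted p = 5.92e-06), close to 2-fold. SPRED2 (ENSG00000198369; chromosome 2, 65310851 to 65432637, minus strand), which also binds neurofibromin, had 1863, 1891 and 1889 normalised counts in siControl and 2650.4, 2635 and 2701 in siPVT1. Its rise was 1.42-fold (log2 fold change 0.50, SE 0.054, adjusted p = 0.000101). Their coefficients of variation in siPVT1 were 1.80% and 1.30%, the lowest of the 10 genes.

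Of the phosphatase genes, DUSP6 rose and the 3 nuclear enzymes did not pass the test. DUSP6 (ENSG00000139318; chromosome 12, 89347235 to 89352501, minus strand) had 2557, 2483 and 2548 normalised counts in siControl and 6188, 5131 and 3857 in siPVT1. The siPVT1 libraries were all above the siControl libraries but far from each other, so that the 95% interval of the log2 fold change of 0.999 ran from 0.66 to 1.34 (SE 0.149, adjusted p = 0.000622). For DUSP4 (ENSG00000120875; chromosome 8, 29333064 to 29350684, minus strand) the normalised counts were 1548, 1449.7 and 1551 in siControl and 1588, 1531 and 1263 in siPVT1. The groups overlapped, and the log2 fold change was -0.055 (95% interval -0.27 to 0.16, adjusted p = 0.642).

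DUSP5 (ENSG00000138166; chromosome 10, 110497907 to 110511533, plus strand) had 6962, 6761 and 7091 normalised counts in siControl and 7473, 6242 and 4958 in siPVT1, so that its siPVT1 libraries lay on both sides of the siControl libraries. Its log2 fold change was -0.16 (95% interval -0.46 to 0.14, adjusted p = 0.334). DUSP1 (ENSG00000120129; chromosome 5, 172768096 to 172771195, minus strand) also spread widely, with 3034, 2908.5 and 2987 normalised counts in siControl and 4606, 3421 and 2209 in siPVT1. Replicates 1 and 2 of siPVT1 were above all siControl libraries and replicate 3 was below them, and the log2 fold change was 0.20 (95% interval -0.31 to 0.70, adjusted p = 0.475). For both genes the outcome depended on single libraries. Without siPVT1 replicate 3, DUSP1 passed the test at a log2 fold change of 0.41 (adjusted p = 0.00475), and without siPVT1 replicate 1 its value was -0.097 (adjusted p = 0.628). DUSP5 passed as lower without siPVT1 replicate 1, at -0.32 (adjusted p = 0.0189).

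**Figure D2:**
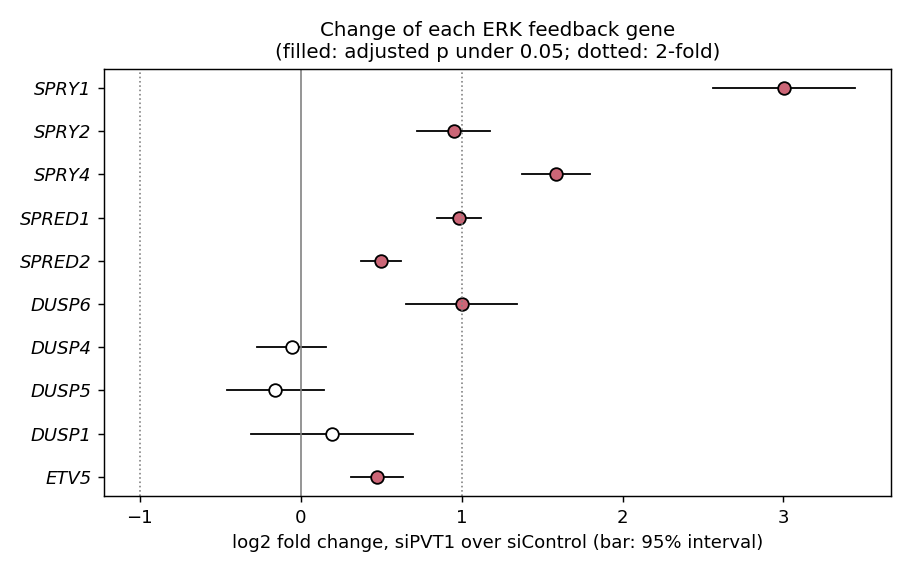
Log2 fold change of each gene, siPVT1 over siControl (horizontal axis), with its 95% interval from edgeR's quasi-likelihood fit. Filled points passed an adjusted p of 0.05, dotted lines mark 2-fold, and 7 points lie to the right of 0 with intervals that do not reach it.

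ETV5, the transcription factor of the set (ENSG00000244405; chromosome 3, 186046314 to 186110318, minus strand), had 3424, 3341 and 3444 normalised counts in siControl and 4368, 4699 and 5122 in siPVT1. All siPVT1 libraries were higher, and the rise was 1.39-fold (log2 fold change 0.48, SE 0.070, adjusted p = 0.000564). An exon of the neighbouring gene DGKG overlaps an ETV5 exon on the same strand, and reads of the overlap can be divided between them. DGKG had 590, 565 and 622 counts in siControl and 135, 126 and 230 (as deposited) in siPVT1, lower in every siPVT1 library. The antisense gene ETV5-AS1 was at 0 in every library, and SPRY4-AS1, which overlaps SPRY4 without sharing an exon, had 16 to 34 counts. A lncRNA on the opposite strand shares exon sequence with DUSP6 in GENCODE v44 and is not listed under its identifier in the table. The strand setting of the counting is not given in the sources used here, so DUSP6 reads and antisense reads cannot be told apart.

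The siPVT1 libraries did not move as 1 block across the 10 genes. For the 4 DUSP genes and the 3 Sprouty genes, replicate 1 was the highest and replicate 3 the lowest of the siPVT1 libraries. For the other 3, SPRED1, SPRED2 and ETV5, replicate 3 was the highest. The coefficient of variation among siPVT1 libraries was 35.1% for DUSP1, 23.1% for DUSP6 and 20.2% for DUSP5, and between 1.30% and 13.3% for the other 7 genes. Over the 5937 tested genes with a mean of at least 1000 normalised counts, the median was 7.36% in siPVT1 and 3.29% in siControl. In siControl, 9 of the 10 genes lay between 0.844% and 4.45%, the exception being SPRY1.

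Whether relatives in a family changed to the same extent was asked with ratios of their counts inside each library, which do not depend on scaling between libraries. The ratio of DUSP4 to DUSP6 was 0.606, 0.584 and 0.609 in siControl and 0.257, 0.298 and 0.327 in siPVT1, a log2 difference of -1.03. For SPRY2 to SPRY4 the ratios were 0.440, 0.410 and 0.443 in siControl and 0.276, 0.282 and 0.271 in siPVT1, a log2 difference of -0.64. SPRED1 to SPRED2 went the other way, from 1.11, 1.01 and 1.10 in siControl to 1.48, 1.53 and 1.51 in siPVT1, a log2 difference of 0.49. In each of the 3 pairs the ratios of the groups did not overlap, and the two-sided exact permutation test gave p = 0.1 (0.1 after Benjamini-Hochberg adjustment over 3 pairs), the smallest p that 3 libraries against 3 allow.

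**Figure D3:**
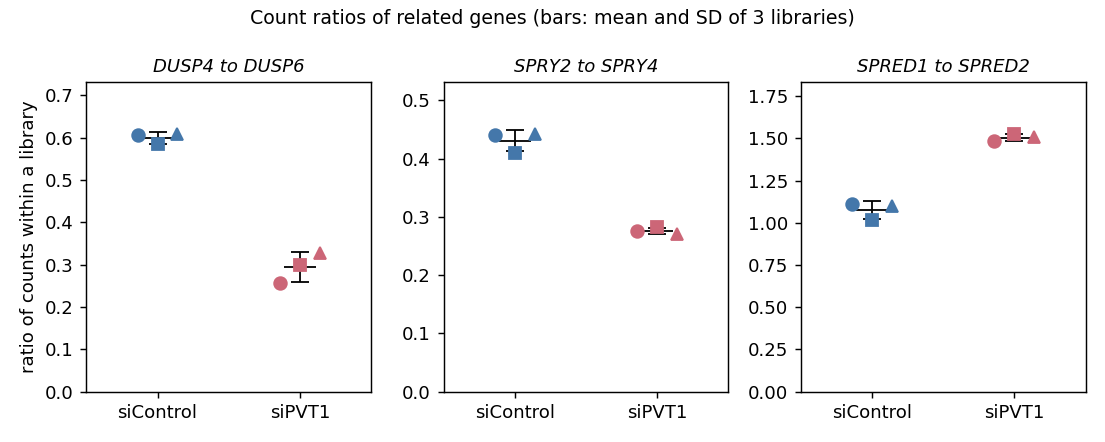
Ratio of the counts of related genes inside each library (vertical axis, from 0) in siControl and siPVT1, with bars for mean and SD of 3 libraries. The 3 siPVT1 ratios lie below the siControl ratios for DUSP4 to DUSP6 and SPRY2 to SPRY4 and above them for SPRED1 to SPRED2.

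Levels of different genes were compared only per length, as normalised counts per kilobase of the MANE Select transcript in GENCODE v44. In siControl the order from the highest was DUSP5 (2801 ± 67.3), DUSP1 (1479 ± 31.5), ETV5 (834 ± 13.4), SPRY4 (721 ± 22.6), DUSP6 (697 ± 11.1), SPRY2 (666 ± 14.8), SPRED2 (416 ± 3.51), SPRED1 (278 ± 12.4), DUSP4 (273 ± 10.4) and SPRY1 (17.0 ± 5.21), as mean ± SD over 3 libraries. SPRY4 and DUSP6, and SPRED1 and DUSP4, were not apart beyond these spreads. In siPVT1 DUSP5 was again first at 2513 ± 508, followed by SPRY4 (2168 ± 261), DUSP1 (1695 ± 595), DUSP6 (1395 ± 322), SPRY2 (1287 ± 171) and ETV5 (1159 ± 92.6). Each of these 6 overlapped its neighbours in that order within the SDs. SPRED2 (589 ± 7.66), SPRED1 (551 ± 9.93) and DUSP4 (263 ± 31.3) came next and were apart from each other. SPRY4 passed from the fourth place to the second and ETV5 from the third to the sixth, and SPRY1 was last in both groups, at 137 ± 11.8 in siPVT1.

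**Figure D4:**
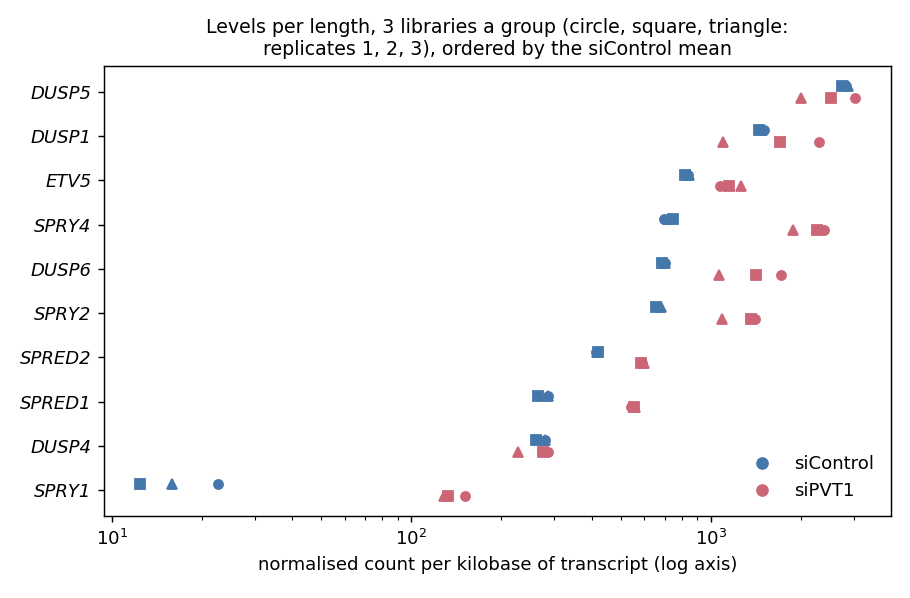
Normalised counts per kilobase of transcript (horizontal log axis) of the 10 genes in each library, ordered by the siControl mean. SPRY1 is the lowest gene in both groups, at 17.0 in siControl and 137 in siPVT1, and DUSP5 has the highest mean in both.

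The sequence just upstream of a gene's start was read for 4 genes, because they show both outcomes: SPRY1, DUSP6 and SPRY2 rose and DUSP1 did not pass the test. Each line gives the 250 bases before the start site of the MANE Select transcript, from RefSeq promoter windows on GRCh38.p14, written 5′ to 3′ along the gene's strand. Capitals mark matches on either strand to the string CCGGAA (1 form of the ETS site, called the ETS core here) or an AP-1 site (TGANTCA). They also mark the core of a cyclic AMP response element (TGACG) and the full element (TGACGTCA, which holds the core on both strands). A CArG box, the motif of serum response factor, was marked as well.
SPRY1, chr4:123396545-123396794, plus strand: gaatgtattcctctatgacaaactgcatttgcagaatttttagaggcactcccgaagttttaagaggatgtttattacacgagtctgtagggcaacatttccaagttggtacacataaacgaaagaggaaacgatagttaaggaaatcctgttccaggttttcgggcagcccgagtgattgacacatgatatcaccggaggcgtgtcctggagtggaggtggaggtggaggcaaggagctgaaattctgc
DUSP6, chr12:89352502-89352751, minus strand: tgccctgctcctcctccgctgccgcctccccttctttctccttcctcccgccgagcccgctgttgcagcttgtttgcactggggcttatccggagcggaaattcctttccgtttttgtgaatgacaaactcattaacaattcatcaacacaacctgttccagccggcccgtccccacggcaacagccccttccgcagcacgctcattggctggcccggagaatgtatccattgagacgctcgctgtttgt
SPRY2, chr13:80341127-80341376, minus strand: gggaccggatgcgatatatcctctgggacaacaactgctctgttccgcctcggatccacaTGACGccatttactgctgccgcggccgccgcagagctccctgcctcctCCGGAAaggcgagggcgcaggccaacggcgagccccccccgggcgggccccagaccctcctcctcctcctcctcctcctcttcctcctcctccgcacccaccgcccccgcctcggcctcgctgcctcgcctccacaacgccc
DUSP1, chr5:172771196-172771445, minus strand: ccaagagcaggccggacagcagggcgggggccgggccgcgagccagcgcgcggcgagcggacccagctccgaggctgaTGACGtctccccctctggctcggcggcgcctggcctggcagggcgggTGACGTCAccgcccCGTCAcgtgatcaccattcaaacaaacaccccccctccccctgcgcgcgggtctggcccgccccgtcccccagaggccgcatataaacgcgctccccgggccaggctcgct
The DUSP1 window held 4 element cores, first bases 172, 125, 122 and 111 before the start, of which the middle 2 form the full element. That of SPRY2 held an element core and an ETS core, 190 and 142 bases before the start. Those of SPRY1 and DUSP6 held none of the 5 motifs as written above, but both held the shorter GGAA, which was not searched for. Of 35116 RefSeq windows of this length, 21.2% hold the element core, 1.65% the full element, 14.5% the ETS core, 6.57% the AP-1 site and 1.16% the CArG box. Windows were matched for 7 of the 10 genes, 11 windows in all. Among the windows not shown, those of SPRED1 and SPRED2 and of both other SPRY2 starts held no match, a second SPRY1 start held an ETS core and the SPRY4 window, at a start other than that of its MANE Select transcript, held an element core. DUSP4, DUSP5 and ETV5 were not analysed here.

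Most of the other MAP kinase phosphatases were lower in siPVT1. DUSP7 is a cytoplasmic ERK phosphatase like DUSP6, DUSP2 a nuclear one, and DUSP8, DUSP10 and DUSP16 act on p38 and JNK. Of 6 genes, 5 were tested: 4 were lower and 1 was higher at an adjusted p under 0.05, and 2 passed the 2-fold threshold as well, both lower. The shares over all genes tested were 28.4% lower and 29.5% higher, and 9.64% and 11.8% with the 2-fold threshold. DUSP8 fell from 52, 54 and 52 counts to 10, 12 and 4 (log2 fold change -2.45, SE 0.367, adjusted p = 0.000628). DUSP2 had 15, 7 and 12 counts in siControl and 0, 0 and 1 in siPVT1, a ratio of 31.3 with an exact 95% interval of 5.26 to 1273 that covers counting error only. The median log2 fold change of the 5 was -0.57. DUSP9 had at most 4 counts in a library and was not tested.

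Regulators other than phosphatases that act at the receptor or on RAS and RAF were mostly higher. Of 12 such genes, 7 were higher and 2 lower at an adjusted p under 0.05, against 29.5% and 28.4% of all genes tested. At 2-fold 3 were called, all higher, against 11.8% of all genes called higher and 9.64% called lower. The median log2 fold change of the 12 was 0.49. IL17RD, which encodes the FGF pathway inhibitor SEF, rose from 139 ± 4.47 to 564 ± 57.9 normalised counts (SD, n = 3 each; log2 fold change 2.02, adjusted p = 3.16e-06). LRIG1, whose product promotes degradation of ERBB receptors, rose from 1176 ± 22.8 to 4235 ± 253 (1.85, adjusted p = 7.69e-07), and RASA2, a RAS GTPase-activating protein, had a log2 fold change of 1.05 (adjusted p = 3.74e-06). Scaled by the total count, RASA2 lay under the 2-fold line at 0.90, and in a test against a 2-fold change its adjusted p was 0.443. The remaining Sprouty and Spred genes differed in direction: SPRED3 rose by 0.70 on the log2 scale and SPRY3 fell by 0.89 on it (-0.89), to 67.7 ± 2.0 normalised counts from 126 ± 9.92.

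Other genes known as ERK outputs did not move in 1 direction. Of 9, 5 were higher and 2 lower at an adjusted p under 0.05, against 29.5% and 28.4% of all genes tested. At 2-fold 3 were called, all higher, against 11.8% of all genes called higher and 9.64% called lower. Those 3 were IER3 (log2 fold change 1.39), PHLDA1 (1.35), which is part of widely used ERK signatures, and ETV1 (1.25). ETV1 and ETV4 are the other PEA3 genes beside ETV5, and ETV4 fell by 0.86 on the log2 scale (-0.86, adjusted p = 1.14e-05), from 2506 ± 74.3 to 1384 ± 42.1 normalised counts. CCND1, which encodes cyclin D1, had a log2 fold change of 0.034 (adjusted p = 0.675), at 39283 ± 954 and 40232 ± 2679 normalised counts (SD, n = 3 each).

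Immediate early genes, transcribed within minutes of ERK activation, were mostly lower. Of 12, 8 were lower and 3 higher at an adjusted p under 0.05, against 28.4% and 29.5% of all genes tested (median log2 fold change of the 12, -0.73). At 2-fold 5 were called, all lower, against 9.64% of all genes called lower and 11.8% called higher. FOSB (log2 fold change -4.58), EGR1 (-3.87), EGR2 (-3.84), FOS (-2.15) and ATF3 (-1.78) were those 5. EGR1 had 3705, 3606 and 3948 counts in siControl and 237, 237 and 232 in siPVT1. DUSP1, itself an immediate early gene, did not pass the test, as given above. JUNB, NR4A1 and ZFP36 rose, with log2 fold changes of 0.67, 0.76 and 0.72.

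The cascade itself was covered by a list of 24 genes, from adaptors to ERK-responsive factors. At an adjusted p under 0.05, 10 were higher and 5 lower, 2 were called, and the median log2 fold change was 0.15. Among all genes tested, 29.5% were higher and 28.4% lower, with 11.8% called higher and 9.64% called lower. The same shares stand beside the other lists of this paragraph. MAP2K1, which encodes the ERK kinase MEK1, rose from 2103 ± 86.1 to 4836 ± 200.4 normalised counts (SD, n = 3 each; log2 fold change 1.20, adjusted p = 3.13e-06), and RPS6KA1, an ERK-activated kinase, had a log2 fold change of 1.17. MAPK3, which encodes ERK1, rose by 0.60 on the log2 scale. SRF, the factor that binds CArG boxes, fell by 0.55 (-0.55) on the log2 scale. In the p38 and JNK cascades, substrates of DUSP1, DUSP10 and DUSP16, 0 of the 12 genes tested were called at 2-fold, with 5 higher and 3 lower at an adjusted p under 0.05 in edgeR (8 in either direction). Among 8 growth factor receptors, 3 were higher and 1 lower at an adjusted p under 0.05. MET, the HGF receptor, was the 1 gene called, with a log2 fold change of 1.21, and EGFR had a value of 0.18 (adjusted p = 0.156). Without siControl replicate 2 the number of receptors called was 2.

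**Figure D5:**
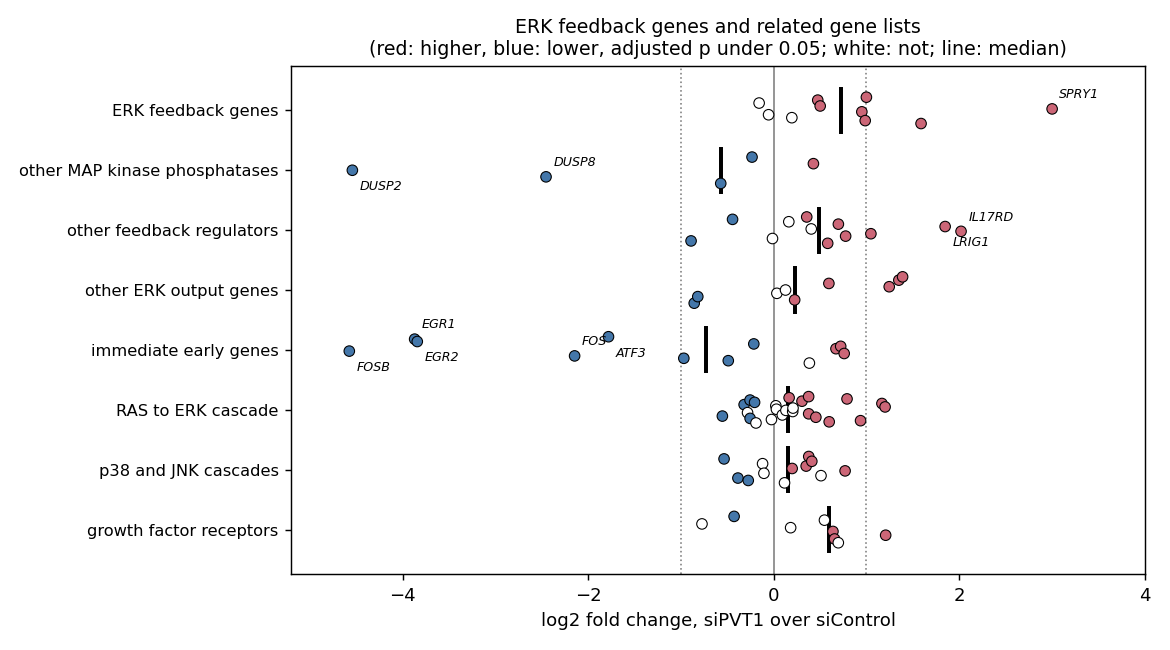
Log2 fold changes, siPVT1 over siControl (horizontal axis), of the tested genes of each list (points), with the list median as a black line and 2-fold as dotted lines. The ERK feedback genes have a median of 0.73, the other MAP kinase phosphatases of -0.57 and the immediate early genes of -0.73.

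As a description of the pattern of DUSP6, log2 CPM values over the 6 libraries were correlated with those of every tested gene. The 3 most alike were ADGRG1 (Pearson's r 0.9999), ZFHX4 (0.9998) and ACSS3 (0.9996), and 2149 genes had an r of at least 0.95. Within the set, r with DUSP6 was 0.98 for SPRY2, 0.96 for SPRY4 and 0.93 for SPRY1. It was 0.914 for SPRED1, 0.911 for SPRED2 and 0.79 for ETV5, and 0.57, 0.092 and -0.086 for DUSP1, DUSP4 and DUSP5. These 6 libraries fall into 2 groups, so that genes that differ between the groups tend to a high r in size.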

How the data were processed

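RNA of 6 libraries, 3 siControl and 3 siPVT1, was compared, with groups and replicate numbers from the sample titles. The authors aligned the reads with STAR 2.7.3a to the GENCODE v35 transcriptome (GRCh38.p13) and ran Salmon 0.14.1, which divides reads between similar transcripts. They deposited estimated counts for each symbol, already rounded and not normalised.

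The whole table was fitted in edgeR 4.0.16 (R 4.3.3) by quasi-likelihood after TMM scaling, with the siRNA as the only term, for genes with at least 5 normalised counts in at least 3 libraries. A gene passed at a Benjamini-Hochberg adjusted p under 0.05 over all 19008 genes, and was called where its absolute log2 fold change was at least 1 as well. SE was taken from the log2 fold change and its F value, and 95% intervals from the fit's degrees of freedom.

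The members and gene lists were chosen with earlier results of these data known. All 10 members are named, and from other lists the genes called. ETV4, CCND1, SPRY3, SPRED3, EGR2, FOS, ATF3, JUNB, NR4A1, ZFP36, MAPK3, SRF, EGFR and DGKG were named after their values were seen. Positions and lengths are those of GENCODE v44 (GRCh38). Alternatives were DESeq2 1.42.0, other scalings and filters, a replicate block, omission of each library and a test against 2-fold. The code was tested on simulated data.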

Additional observations from a re-analysis of the deposited data

How the results depend on the processing

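The 7 genes that rose (SPRY1, SPRY2, SPRY4, SPRED1, SPRED2, DUSP6 and ETV5) passed the adjusted p as higher under each of 12 alternatives: the replicate block, DESeq2, edgeR with the size factors of DESeq2 or with total counts, both other filters and the omission of each library. Scaling by the total count moved the median of all genes to -0.15 and the share of called genes that were higher from 55.1% to 43.8%, and with it these 7 lay between 0.33 and 2.86. A test against a 2-fold change called 2 of the 10 genes, 1976 genes in all in place of 4081, 1 of the cascade genes in place of 2 (without RPS6KA1, adjusted p = 0.149), 2 of the other feedback regulators in place of 3 (without RASA2, adjusted p = 0.443) and 2 of the other ERK outputs in place of 3 (without ETV1, adjusted p = 0.0616). With filterByExpr 1 of the other phosphatases was called, since DUSP2 was not kept. DUSP1 and DUSP4, which did not pass the test, turned direction on omission of a library: DUSP1 ran from -0.097 (without siPVT1 replicate 1) to 0.41 and DUSP4 from -0.13 to 0.024 (without siPVT1 replicate 3).

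With 1 library left out, the number called over all genes ran from 3507 to 4239, the members called higher from 2 to 4, the other phosphatases called from 1 to 2 and the receptors called from 1 to 2. The members with an adjusted p under 0.05 numbered 7 to 8, and the log2 differences of the ratios lay from -1.11 to -0.94 (DUSP4 to DUSP6), -0.68 to -0.62 (SPRY2 to SPRY4) and 0.44 to 0.51 (SPRED1 to SPRED2).

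Deviations from the group means correlated at -0.041, 0.038 and 0.0037 in libraries with the same replicate number. With different numbers they correlated at -0.054 to 0.061. No pairing by number was visible, but with 3 libraries a group this check cannot exclude one. The replicate block gave 3924 called genes and changed no member's call, and within pairs the ratios gave p = 0.25 in an exact sign-flip permutation test, the smallest it allows. At 32 to 62 counts, SPRY1 in siControl is limited by depth.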

Other observations

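The genes of the DUSP series that were not among the MAP kinase phosphatases listed above were looked at after the counts had been seen. They were set apart by list only, and whether their products act on MAP kinases was not tested. Of 14 further symbols of the DUSP series, 9 were tested, 4 were lower and 2 higher at an adjusted p under 0.05, and 0 were called at 2-fold in edgeR. Among all genes tested, 28.4% were lower and 29.5% higher, with 9.64% called lower and 11.8% called higher. DUSP14 had 1117, 1005 and 1114 counts in siControl and 477, 455 and 561 in siPVT1, a log2 fold change of -0.998 (SE 0.069, adjusted p = 1.1e-05), just short of 2-fold. DUSP3, known as VHR, fell by 0.57 on the log2 scale, from 4217 ± 47.0 to 2844 ± 89.9 normalised counts (SD, n = 3 each). DUSP18 rose by 0.78, and its groups did not overlap, as was so in either direction for 65.6% of all genes tested. Over all 18 tested genes of the series, the 4 members included, 8 were lower and 4 higher, with a median log2 fold change of -0.27.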
